A study of Neurospora crassa with 24 samples.

Results

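Of the 9730 loci measured in *Neurospora crassa*, 17 were more abundant in both the Δ*rco-3* and the Δ*col-26* mutant than in the WT on glucose, while the WT without carbon source was less than 0.5 above the WT at 2% glucose on a log2 scale. The genes were chosen by their measured levels, as means of log2(FPKM + 1) over the 2 libraries of each group. FPKM is the number of fragments of a transcript per kilobase of its length and scaled to the mapped fragments of the library. A gene was taken where both mutants were at least 1 above the WT on this scale at 0.5% and at 2% glucose, where the WT without carbon source was less than 0.5 above the WT at 2% glucose, and where a mutant exceeded 20 FPKM at 2% glucose. The first condition alone was met by 419 loci, and with the FPKM limit by 239. In 222 of these the WT was 0.5 or more higher without carbon source than at 2% glucose, and the 17 genes are the remainder. The condition compares the starved WT with 2% glucose only. For *gcy-3*, NCU06364, NCU09209 and NCU09210 both starved WT libraries were higher than every WT library on glucose. The values at 0.5 and 2% glucose, and those of the starved WT, therefore describe how the genes were selected and are given without a test.

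The 3 strains were the WT (labelled OR74A), a strain lacking *rco-3* and a strain lacking *col-26*, each in 4 media with 2 libraries per combination and 24 in all. Mycelia of every group grew from conidia for 16 h at 28 °C in Vogel's minimal medium with 2% sucrose, were washed, and spent the last 1 h in that medium with no carbon source or with 0.05, 0.5 or 2% glucose. Each mutant is 1 stock strain, and the study's methods give both as *mat a*. The WT reference strain is of the opposite mating type, *mat A*.

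The fungus senses external glucose and turns down genes for other carbon sources while glucose is plentiful, which is known as carbon catabolite repression. *rco-3* encodes a membrane protein that resembles sugar transporters and acts in glucose sensing, and *col-26* encodes a zinc cluster transcription factor that acts in the use of starch and glucose. Most genes that met the conditions on the mutants (222 of 239) were at least 0.5 higher in the starved WT than in the WT at 2% glucose. The 17 genes described here stayed under that limit. The share of all genes at or above it was not counted, and the median of this difference over all genes tested was 0.31.

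The depth of the libraries is not known. An estimate from the steps of low FPKM values gave 96.2 to 103% of the median library. Only 62.3% of the values fell within 0.15 of a whole step, and the others were left out. Each library was thus held near the median in advance, and the range cannot show equal depth. Duplicates correlated across genes with r of 0.9983 to 0.9988. No Δ*rco-3* library had a value above 0 for *rco-3*, which lay between 5.97 and 21.0 FPKM in the WT. *col-26* was between 4.91 and 10.6 FPKM in Δ*col-26* and between 16.7 and 39.6 FPKM in the WT, so its transcript was lower in the mutant but not at 0. *mat A-1*, the mating type gene of *mat A* strains, was between 1.82 and 11.95 FPKM in the WT and at 0 in all 16 mutant libraries. *mfa-1*, the pheromone precursor gene of *mat a* strains, was at most 7.15 FPKM in the WT and at least 8902 FPKM in every mutant library. All comparisons of a mutant with the WT thus set a *mat a* strain against a *mat A* strain, and the effects of the deletion, of mating type and of other differences between the strains cannot be told apart. As a sum, transcripts of 6 conidiation genes were also more abundant in the mutants. This sum on glucose was 9.31 to 33.9 FPKM for the WT, 591 to 912 FPKM for Δ*rco-3* and 371 to 745 FPKM for Δ*col-26*, and without carbon source it was 357 to 366, 4633 to 4809 and 4833 to 5054 FPKM in the same order. *eas*, a hydrophobin gene of the conidial coat, made up most of each mutant sum, *con-8* and *con-10* were also above the WT, and *con-13* was the one of the 6 at 0 in the WT on glucose. *fl*, a regulator of conidiation, was lower in Δ*col-26* than in the WT in 3 media, with means of 3.04 and 4.70 FPKM without carbon source and 2.08 and 4.92 FPKM at 2% glucose. The part of conidiation in the results below was not tested, and in such bulk samples more cells of a type and more RNA per cell cannot be told apart.

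Across the 24 libraries the 17 genes differed widely in level, from transcripts listed at 0 in the WT to *acw-6*, which gave 2121 and 2324 FPKM in Δ*rco-3* at 2% glucose. Only 4 carry a symbol in the annotation, namely *cat-3*, *acw-6*, *acw-12* and *gcy-3*, and 13 are known only by locus number. They lie on all 7 chromosomes, with 6 on chromosome I, and 5 of these 6 form 2 local groups described below. At 0.5% glucose the median difference from the WT over the genes was 2.59 in the Δ*rco-3* mutant and 2.55 in Δ*col-26*, beside 0.24 and 0.03 over all 7981 genes tested, on the log2(FPKM + 1) scale. At 2% glucose it was 2.46 and 2.11, beside 0.21 and 0.05. Duplicate libraries differed for these genes by a median of 0.05 and by at most 0.46 on this scale. The gene nearest the fold limit from inside was *gcy-3*, with a lowest difference of 1.03, followed by NCU04543 with 1.17 and NCU09659 with 1.26. Just outside were *mig-11* with 0.99, *tah-1* with 0.90 and NCU01559 with 0.87. For the starvation limit, the closest inside were *gcy-3*, NCU09209 and NCU06364, where the WT without carbon source was 0.32, 0.14 and 0.13 above the WT at 2% glucose. NCU04936, NCU16498 and NCU08231 fell just outside with 0.53, 0.53 and 0.58.

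**Figure D1:**
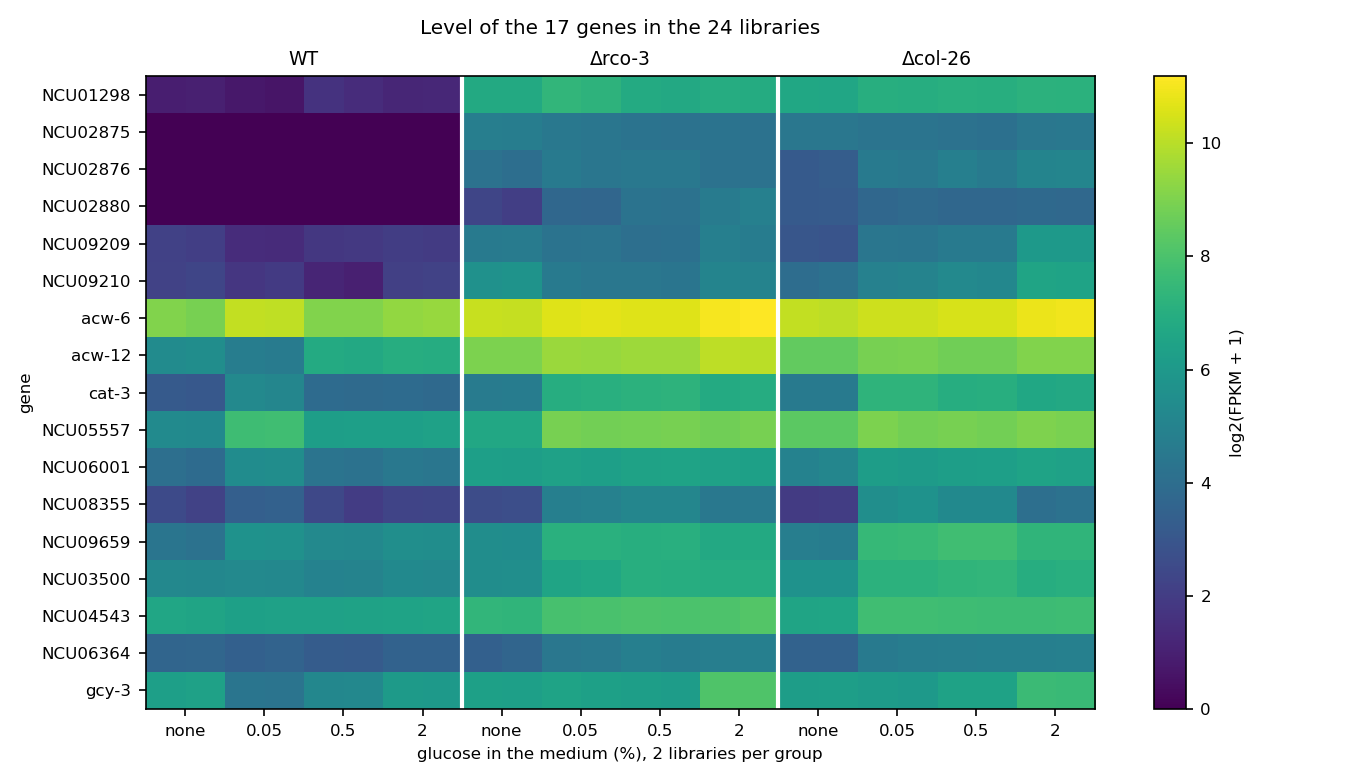
Level of the 17 genes (rows) in the 24 libraries (columns, ordered by strain and glucose in %), as log2(FPKM + 1) in colour. The 4 genes at the top are at or near 0 in all 8 WT libraries, and *acw-6* is the brightest row, with 479 to 1136 FPKM in the WT and up to 2324 FPKM in Δ*rco-3*.

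The libraries at 0.05% glucose took no part in choosing the genes, and they show the same direction. All 17 genes were above the WT in both libraries of each mutant at 0.05% glucose. A gene was called where the adjusted p of the limma fit was below 0.001, the difference at least 1 on the log2(FPKM + 1) scale and the mean above 20 FPKM in a group compared. By this rule 12 of the 17 were called higher in the Δ*rco-3* mutant and 12 in Δ*col-26* than in the WT, against 9.25% and 5.85% of all genes tested, and none was lower. The adjusted p was below 0.001 for all 17 in both comparisons, and those not called stayed under the fold or FPKM limit. The share of all genes below this p was not counted. Small differences also reached it in the limma fit, such as -0.26 in Δ*rco-3* for *acw-11*, not one of the 17 (adjusted p = 7.58e-07). NCU02875, NCU02876 and NCU02880 reached the mean of 1 FPKM needed for testing only in the mutants. The counts of 12 include NCU02875 and NCU02876 in Δ*rco-3* and NCU02876 in Δ*col-26*, and the 17 below the p limit include all 3. For these 3 loci the calls and p are not used as support. Over the 17 genes the median difference was 1.81 in the Δ*rco-3* mutant and 2.08 in Δ*col-26*, beside 0.50 and 0.27 over all genes tested. With median-ratio scaling of the libraries, which shifts the median of all genes by -0.50 and -0.25, only 4 remained called in Δ*rco-3* (NCU01298, *acw-12*, *cat-3* and *gcy-3*), and 7 with quantile normalization. The difference itself was still at least 1 for 9 and 12 of the 17 in Δ*rco-3* with these scalings, so that some calls were lost to the FPKM limit, as for NCU02875, NCU02876 and NCU09210. Both comparisons use the same WT libraries.

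Without carbon source the genes parted. In Δ*rco-3* 12 of the 17 were at least 1 above the WT with no overlap of the libraries, and in Δ*col-26* 10 were, beside 4.27% and 7.29% of all genes tested. These counts carry no test, since the rule had limited the level of the starved WT. The median difference over the genes was 1.54 and 1.14, beside 0.22 and -0.15 over all genes tested. Both mutants lay within 0.5 of the WT for 4 genes, NCU03500, NCU06364, NCU08355 and *gcy-3*, so that their gap to the WT was found on glucose only by this measure. Both mutants were at least 1 above the WT for 10 genes, among them the loci that were near 0 in the WT, *cat-3*, *acw-6* and *acw-12*.

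**Figure D2:**
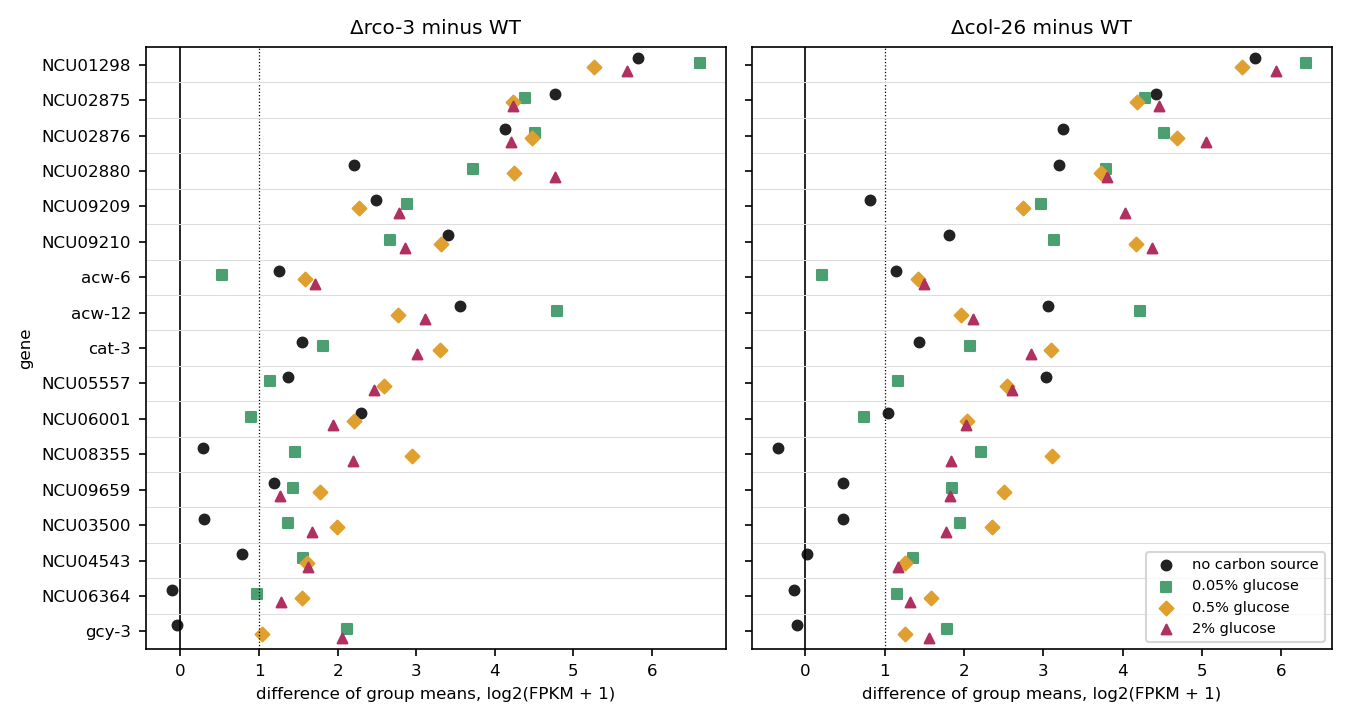
Difference of each mutant from the WT for the 17 genes in the 4 media, as group means of log2(FPKM + 1) from 2 libraries each. Squares are 0.05% glucose, circles no carbon source, diamonds 0.5% and triangles 2% glucose, and the dotted line marks the limit of 1. At the lower end the circles of NCU03500, NCU06364 and *gcy-3* lie near 0 while their glucose points lie around 1 or above.

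NCU01298, on chromosome V (3568817-3570414 in the NC12 build), had the largest difference from the WT in all 4 media on the log2(FPKM + 1) scale, on which the pseudocount limits the differences of the loci at or near 0 in the WT. WT libraries gave 0.93 and 0.98 FPKM without carbon source, 0.56 and 0.66 at 0.05%, 1.66 and 2.16 at 0.5% and 1.28 and 1.36 at 2% glucose. Δ*rco-3* libraries gave 109.6 and 111 FPKM without carbon source, 150.4 and 162 at 0.05%, 107 and 113 at 0.5% and 118 and 119 at 2% glucose. Δ*col-26* libraries gave 98.4 and 99.3, 124 and 129, 129.9 and 133, and 138 and 143 FPKM in the same order. No WT library came near a mutant library, and the levels of each mutant stayed in 1 band over the media, from 107 to 162 FPKM in Δ*rco-3* and from 98.4 to 143 FPKM in Δ*col-26*. At 0.05% glucose the difference was 6.61 ± 0.059 (SE) in Δ*rco-3* (adjusted p = 1.57e-24) and 6.31 ± 0.059 in Δ*col-26* (adjusted p = 3.70e-24), on the log2(FPKM + 1) scale. The annotated locus overlaps NCU01299, which was 10.2 to 27.0 FPKM in WT libraries, 9.45 to 19.8 in the Δ*rco-3* mutant and 2.9 to 16.6 in Δ*col-26*. How reads in the overlap were assigned is not known. The other neighbour, NCU01297, was below 0.6 FPKM in every library. NCU01298 and *col-26* are on the same chromosome, 3.28 Mb apart.

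NCU02876 and NCU02875 lie next to each other on chromosome I (8839688-8840275 and 8841501-8844907), 1226 bp apart, and NCU02880 (8823648-8824866) lies 14822 bp from NCU02876 with 3 measured loci in between. NCU02876 and NCU02880 were listed at 0 in all 8 WT libraries, and NCU02875 was at 0 in 6 and at 0.02 and 0.03 FPKM in the other two. In Δ*rco-3* NCU02876 gave 15.4 and 17.7 FPKM without carbon source, 20.02 and 23.7 at 0.05%, 21.3 and 21.3 at 0.5% and 17.4 and 17.5 at 2% glucose. In Δ*col-26* it gave 8.07 and 8.97, 21.2 and 22.9, 22.3 and 27.4, and 31.8 and 32.8 FPKM. The transcript was thus lowest in Δ*col-26* without carbon source and highest in the same strain at 2% glucose, whereas the Δ*rco-3* libraries stayed between 15.4 and 23.7 FPKM. NCU02875 varied less, between 17.3 and 26.9 FPKM in Δ*rco-3* and between 16.4 and 21.2 FPKM in Δ*col-26*, with its highest values in starved Δ*rco-3*.

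NCU02880 followed the glucose supply in one mutant. In Δ*rco-3* it gave 3.21 and 4.09 FPKM without carbon source, 12.1 and 12.4 at 0.05%, 17.5 and 18.4 at 0.5% and 24.3 and 28.1 at 2% glucose, with no overlap between neighbouring media. In Δ*col-26* it gave 7.93 and 8.35 FPKM without carbon source and between 12.2 and 13.4 FPKM on all 3 glucose levels. No fold is given against a WT group at 0. All 3 loci reached the mean of 1 FPKM needed for testing only in the mutants. Their p against the WT is therefore not used as support. At 0.05% glucose NCU02880 stayed under 20 FPKM in both mutants and NCU02875 in Δ*col-26*, so they were not called there. NCU02875, at 20.3 FPKM, was called in Δ*rco-3*, and was no longer called without replicate 1 of Δ*rco-3* at 0.05% glucose, with 19.7 FPKM left.

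The loci between and beside them were not all alike. NCU02879 and NCU02878, between NCU02880 and NCU02876, were also at 0 in all 8 WT libraries, and reached at most 1.81 FPKM in a mutant. NCU02877, the direct neighbour of NCU02876, was expressed in the WT at 0.94 to 28.2 FPKM, and reached 80.2 FPKM in the Δ*rco-3* mutant and 155 FPKM in Δ*col-26*. These highest values were those without carbon source in every strain. On glucose its means were 1.055 to 2.50 FPKM in the WT and 9.985 to 15.3 FPKM in the mutants. NCU02882, beyond NCU02880, was 0.18 to 1.08 FPKM in the WT and 2.25 to 10.7 FPKM in the mutants. On the other side, NCU02873 and NCU02872 were at most 0.16 FPKM in any library. The 3 loci lie 6.02 to 6.03 Mb from *rco-3* and 6.96 to 6.98 Mb from *mat A-1*, both of which are on the same chromosome.

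**Figure D3:**
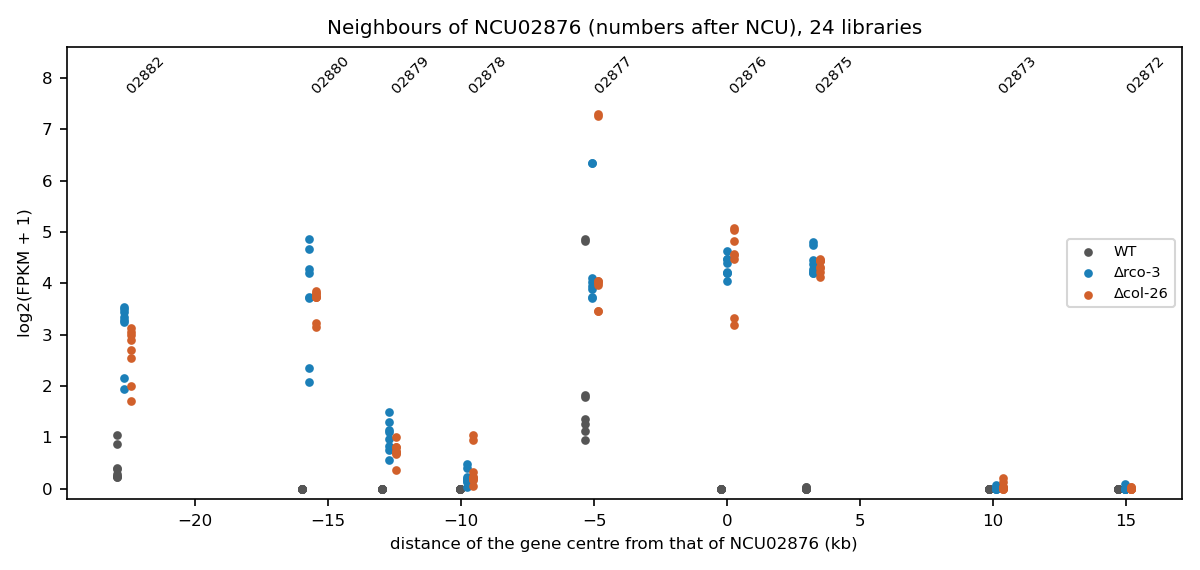
Level of 9 loci around NCU02876 in the 24 libraries as log2(FPKM + 1), against the distance of each locus from NCU02876 in kb, with one point per library. WT points (grey) lie at 0 for NCU02880, NCU02879, NCU02878 and NCU02876 and at or below 0.03 FPKM for NCU02875, while NCU02877 has WT points up to 28.2 FPKM.

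NCU09209 and NCU09210 form a second adjacent pair on chromosome I (5845361-5847904 and 5849601-5852150), 1697 bp apart, and 2971498 bp separate NCU09210 from NCU02880. Both were low in the WT, highest in Δ*col-26* at 2% glucose, and apart between the mutants when carbon was missing. NCU09210 was between 0.97 and 4.07 FPKM in the WT. In Δ*rco-3* it gave 48.9 and 51.9 FPKM without carbon source, 20.7 and 22.8 at 0.05%, 19.4 and 20.3 at 0.5% and 30.6 and 31.7 at 2% glucose. In Δ*col-26* it gave 14.9 and 17.1, 29.3 and 31.5, 35.3 and 37.5, and 88.7 and 92.2 FPKM. Starved libraries were thus the highest of Δ*rco-3* and the lowest of Δ*col-26*, with no overlap in either case.

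NCU09209 was between 1.56 and 3.47 FPKM in the WT. It gave 22.8 and 24.1 FPKM in starved Δ*rco-3* and 6.40 and 6.91 FPKM in starved Δ*col-26*, and 25.2 and 27.1 against 62.5 and 65.2 FPKM at 2% glucose. Between the mutants without carbon source, Δ*rco-3* was higher by 1.68 ± 0.056 for NCU09209 (adjusted p = 1.88e-15) and by 1.6 ± 0.073 for NCU09210 (adjusted p = 2.60e-13). With median-ratio scaling NCU09209 kept a difference of 1.31 but no longer passed 20 FPKM. The flanking loci did not share the pattern. NCU09208 was 6.39 to 11.1 FPKM in the WT and 9.18 to 16.8 FPKM in the mutants, and *sad-3*, on the other side, was at most 0.24 FPKM in any library.

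Of the 11 genes named *acw* in the annotation, 2 are among the 17. They belong to a family that encodes anchored cell wall proteins. *acw-12* (NCU08171, chromosome VII, 3621182-3623068) was expressed in the WT in every medium and was far higher in both mutants. WT libraries gave 40.8 and 43.7 FPKM without carbon source, 23.8 and 25.7 at 0.05%, 107 and 112 at 0.5% and 121 and 124 at 2% glucose. Δ*rco-3* libraries gave 506 and 510.1, 701 and 726, 749 and 751, and 1044 and 1087 FPKM. Δ*col-26* libraries gave 356 and 362, 471 and 487, 428 and 435, and 530.2 and 531 FPKM. Each mutant library was above every WT library, and each Δ*rco-3* library above the Δ*col-26* libraries of the same medium. At 0.05% glucose the difference from the WT was 4.79 ± 0.038 in Δ*rco-3* (adjusted p = 2.99e-25) and 4.22 ± 0.038 in Δ*col-26* (adjusted p = 2.20e-24). The locus overlaps NCU08172 in the annotation, and how reads in the overlap were split is not known.

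*acw-6* (NCU03530, chromosome II, 350280-352134) was the most abundant of the 17 genes. WT libraries gave 479 and 532 FPKM without carbon source, 1120.2 and 1136 at 0.05%, 532 and 540.3 at 0.5% and 664 and 693 at 2% glucose, so that the WT peaked at the lowest of the 3 glucose levels. Δ*rco-3* libraries gave 1192 and 1211, 1579 and 1669, 1603 and 1611, and 2121 and 2324 FPKM, and Δ*col-26* libraries 1089 and 1136, 1298 and 1304, 1436 and 1446, and 1875 and 1953 FPKM. The gap to the WT was smallest at 0.05% glucose, at 0.52 ± 0.045 in the Δ*rco-3* mutant and 0.21 ± 0.045 in Δ*col-26*, below the limit of 1, and it turned to -0.08 and -0.11 with median-ratio scaling. Of the 11 *acw* genes 2 were called higher in Δ*rco-3* at 0.05% glucose, *acw-12* and *acw-4*, and only *acw-12* in Δ*col-26*. Over all genes tested the shares called higher were 9.25% and 5.85%. The median difference over the 11 was 0.51 and 0.38, beside 0.50 and 0.27 over all genes tested. Symbols were the only means of finding this family, so cell wall genes under other names are not counted.

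**Figure D4:**
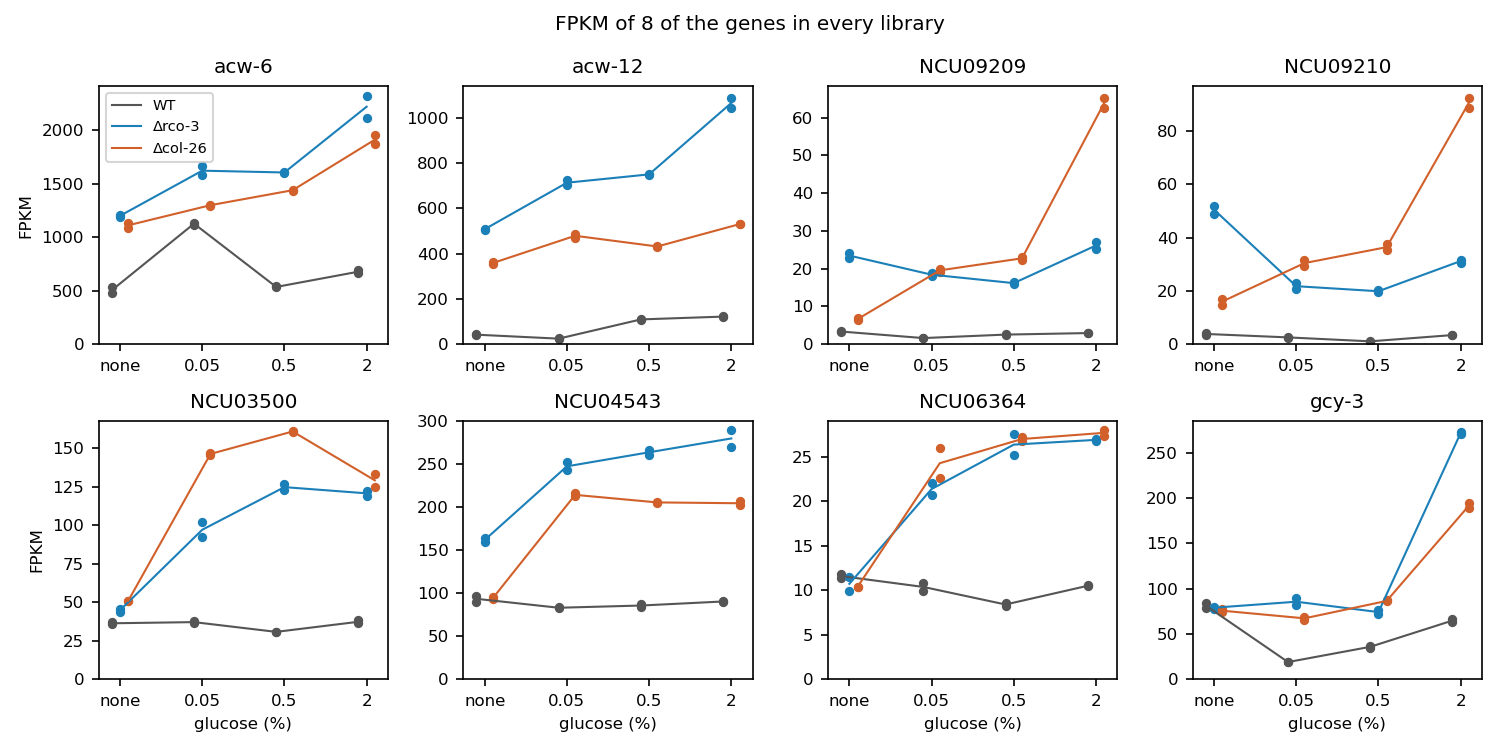
FPKM of 8 of the genes in every library (points) with group means (lines), against glucose in the medium, for the WT (grey), Δ*rco-3* (blue) and Δ*col-26* (orange). NCU09209 and NCU09210 reach 65.2 and 92.2 FPKM in Δ*col-26* at 2% glucose, and the 3 strains meet without carbon source for NCU06364 and *gcy-3*.

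*cat-3* (NCU00355, chromosome III, 3561379-3564584) encodes a catalase, an enzyme that breaks down hydrogen peroxide. WT libraries gave 7.48 and 8.03 FPKM without carbon source, 34.2 and 37.0 at 0.05%, 13.4 and 14.1 at 0.5% and 13.3 and 13.9 at 2% glucose. Δ*rco-3* libraries gave 24.03 and 25.02, 123 and 131, 144 and 147, and 114 and 119 FPKM. Δ*col-26* libraries gave 22.4 and 22.8, 152 and 154, 124 and 127, and 100.4 and 107 FPKM. In all 3 strains the starved libraries were the lowest, and in each medium both mutants were above the WT. At 0.05% glucose *cat-3* was higher by 1.81 ± 0.047 in Δ*rco-3* (adjusted p = 1.30e-17) and by 2.08 ± 0.047 in Δ*col-26* (adjusted p = 2.03e-18). From 0.05% glucose to no carbon source it fell by 2.33 in Δ*rco-3* (adjusted p = 1.79e-19) and fell by 2.71 in Δ*col-26* (adjusted p = 7.87e-21).

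The catalase genes *cat-1* and *cat-2* responded to starvation in the opposite direction. *cat-2* had mean levels of 141 FPKM in the starved WT and 4.83 FPKM at 0.05% glucose, and *cat-1* 30.4 and 7.58 FPKM. Between the same media in the mutants, *cat-2* rose by 2.89 in the Δ*rco-3* mutant and 3.45 in Δ*col-26*, and *cat-1* by 1.35 and 3.72. *cat-4* was too low for a call, with means of 4.92 FPKM at 0.05% glucose and 1.86 FPKM without carbon source in Δ*rco-3*. At 0.05% glucose 3 of the 6 antioxidant genes listed were called higher in the Δ*rco-3* mutant than in the WT (*cat-1*, *cat-2* and *cat-3*) and 2 in Δ*col-26* (*cat-2* and *cat-3*). Over all genes tested the shares were 9.25% and 5.85%. The superoxide dismutase genes *sod-1* and *sod-2* were not called in either, with differences of 0.44 and 0.51 in Δ*rco-3*. *cat-3* was thus the one catalase gene called lower on starvation in the mutants, where *cat-1* and *cat-2* were called higher.

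**Figure D5:**
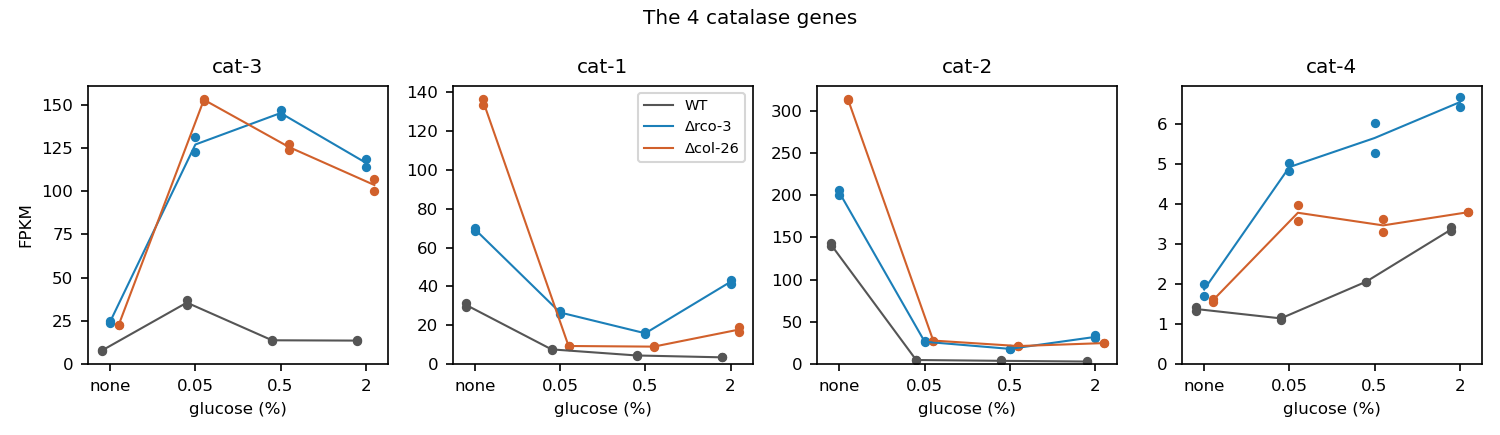
FPKM of *cat-3*, *cat-1*, *cat-2* and *cat-4* in every library (points) with group means (lines) by glucose in the medium, for the WT (grey), Δ*rco-3* (blue) and Δ*col-26* (orange), each panel on its own scale. *cat-3* is lowest without carbon source in each strain (7.48 to 25.02 FPKM) and *cat-1* and *cat-2* are highest there.

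NCU05557, NCU06001 and NCU08355 shared with *cat-3* a WT level at 0.05% glucose at least 1 above that at 2% glucose. NCU05557 (chromosome VI, 1523630-1526819) gave 38.1 and 40.3 FPKM in the starved WT, 207 and 212 at 0.05%, 76.2 and 77.8 at 0.5% and 79.2 and 82.2 at 2% glucose. In Δ*rco-3* it gave 102 and 104 FPKM without carbon source and between 432 and 475 FPKM on glucose. In Δ*col-26* the starved libraries stayed at 328 and 331 FPKM, and those on glucose were between 442 and 514 FPKM. On glucose the mutants were thus flat where the WT varied, and starved Δ*col-26* was the higher of the mutants by 1.67 on the log2(FPKM + 1) scale (SE 0.049, adjusted p = 2.80e-16). The difference from the WT at 0.05% glucose, 1.14 and 1.17, dropped below 1 with both other scalings in both mutants.

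NCU06001 (chromosome VI, 3125164-3126545) gave 14.2 and 16.0 FPKM in the starved WT, 41.9 and 44.4 at 0.05%, 17.5 and 18.6 at 0.5% and 19.96 and 21.2 at 2% glucose. Δ*rco-3* held it between 77.0 and 87.5 FPKM in all 8 libraries, starved ones included. Δ*col-26* gave 29.9 and 34.5 FPKM without carbon source and between 70.4 and 88.7 FPKM on glucose. Starved Δ*rco-3* was higher than starved Δ*col-26* by 1.25 ± 0.062 (adjusted p = 8.34e-13), which became 0.88 with median-ratio scaling.

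NCU08355 (chromosome I, 5651206-5652388) was low in the WT, with 3.56 and 4.62 FPKM without carbon source, 9.34 and 9.97 at 0.05%, 2.91 and 4.36 at 0.5% and 3.85 and 4.02 at 2% glucose. Δ*rco-3* gave 4.97 and 5.37, 27.2 and 29.4, 33.9 and 34.5, and 21.1 and 22.2 FPKM, and Δ*col-26* 2.84 and 3.12, 45.7 and 51.5, 38.2 and 38.7, and 15.7 and 17.6 FPKM. The gene was thus near the WT in both starved mutants and fell from its 0.05% level by 2.25 in Δ*rco-3* (adjusted p = 2.57e-13) and fell by 3.64 in Δ*col-26* (adjusted p = 7.05e-17), the steepest fall among the 17 in the latter.

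NCU09659 (chromosome IV, 98826-101049) gave 17.6 and 19.1 FPKM in the starved WT and between 36.5 and 50.4 FPKM in the WT on glucose. Δ*rco-3* gave 43.0 and 43.1 FPKM without carbon source, 134 and 137 at 0.05%, 127 and 131 at 0.5% and 106 and 109 at 2% glucose. Δ*col-26* gave 24.9 and 26.5, 179 and 183, 212 and 217, and 158 and 159 FPKM. All 3 strains had their lowest values without carbon source, and the fall from 0.05% glucose was 1.14 larger in Δ*col-26* than in Δ*rco-3* (SE 0.051, adjusted p = 3.61e-13).

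A further 4 genes had a gap to the WT of less than 0.5 in at least 1 starved mutant. Except for *gcy-3*, their WT level changed little with the medium. NCU03500 (chromosome II, 467086-469762) was between 30.5 and 38.3 FPKM in all 8 WT libraries. Δ*rco-3* gave 43.8 and 45.6 FPKM without carbon source, 92.2 and 102 at 0.05%, 123 and 127 at 0.5% and 119 and 122 at 2% glucose, and Δ*col-26* 50.8 and 50.9, 146 and 147, 160.4 and 161, and 125 and 133 FPKM. Starved mutants were above the WT in each library, but by less than 0.5. NCU06364 (chromosome IV, 2774096-2775797) was between 8.17 and 11.8 FPKM in the WT, 9.90 and 11.5 FPKM in starved Δ*rco-3* and 10.4 and 10.4 FPKM in starved Δ*col-26*, and between 20.7 and 28.0 FPKM in the mutants on glucose. Its libraries on glucose did not overlap with those of the WT or with the starved libraries of any strain.

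NCU04543 (chromosome VII, 1501203-1502802) was between 82.2 and 96.5 FPKM in the WT. Δ*rco-3* gave 159 and 165 FPKM without carbon source and between 243 and 290.0 FPKM on glucose. Δ*col-26* gave 92.9 and 95.7 FPKM without carbon source, within the range of the starved WT (90.2 and 96.5 FPKM), and between 202 and 216 FPKM on glucose. The locus overlaps NCU04544, and how shared reads were assigned is not known. From 0.05% glucose to no carbon source NCU04543 fell by 1.18 in Δ*col-26* (adjusted p = 1.16e-16), while in Δ*rco-3* the difference was -0.61 and was not called.

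*gcy-3* (NCU04510, chromosome IV, 3139314-3140717) had its highest WT level without carbon source. WT libraries gave 78.8 and 83.6 FPKM without carbon source, 18.5 and 19.2 at 0.05%, 34.7 and 36.6 at 0.5% and 62.7 and 66.6 at 2% glucose. Δ*rco-3* gave 77.7 and 80.0, 81.6 and 89.4, 71.5 and 76.6, and 271 and 273 FPKM, and Δ*col-26* 74.1 and 77.1, 65.8 and 68.4, 85.9 and 86.9, and 189 and 194 FPKM. Starved libraries of the 3 strains lay within 74.1 to 83.6 FPKM, the WT alone was low at 0.05% glucose, and both mutants were highest at 2% glucose. The gap at 0.05% glucose was 2.12 ± 0.046 in Δ*rco-3* (adjusted p = 8.58e-19) and 1.78 ± 0.046 in Δ*col-26* (adjusted p = 1.69e-17). Across the 12 group means *gcy-3* also had the lowest correlation with the mean of the other 16 genes, r = 0.64 against 0.76 to 0.98 for the rest, a description over groups that share strains. Its locus overlaps NCU04509.

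Set against each other at 0.05% glucose, none of the 17 genes was called between the mutants by limma, and 1.4% of all genes were called in either direction, a share at which few calls among 17 would be seen. Of the 17, 12 had an unadjusted p below 0.05 and 10 an adjusted p below 0.001. The shares of all genes below these p limits were not counted. The largest differences were -0.76 ± 0.111 for NCU08355, -0.59 ± 0.043 for NCU03500 and 0.57 ± 0.038 for *acw-12*. With median-ratio scaling 1 gene was called lower in Δ*rco-3*. Without carbon source 4 of the 17 were called, against 5.31% of all genes, with NCU06001, NCU09209 and NCU09210 higher and NCU05557 lower in Δ*rco-3*. Only 1 of the 3 higher calls, NCU09210, was kept with median-ratio scaling.

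The step from 0.05% glucose to no carbon source was tested in each mutant, since neither group entered the rule. The rule did favour genes high in the mutants on glucose and left out those raised in the starved WT. Falls in the starved mutants were thereby made more likely and rises less so. The shares of all genes are therefore a setting for these counts and no neutral measure. Within Δ*rco-3* 5 of the 17 genes were called lower (*cat-3*, NCU03500, NCU05557, NCU08355 and NCU09659), against 8.09% of all genes. NCU09210 alone was called higher, against 9.84%. The rise of NCU09210, 1.18 ± 0.073, became 0.96 with median-ratio scaling and was then not called. Within Δ*col-26* 8 were called lower (*cat-3*, NCU02876, NCU03500, NCU04543, NCU06001, NCU06364, NCU08355 and NCU09659), against 10.6% of all genes, and none higher, against 11.1%. NCU02880 changed by -1.51 in Δ*rco-3* and NCU09209 by -1.43 in Δ*col-26*. They were not called, since their means stayed under 20 FPKM. The median change over the 17 was -0.50 in the Δ*rco-3* mutant and -1.15 in Δ*col-26*, beside 0.23 and 0.16 over all genes tested. The conidiation genes moved the other way over this step, with 4 of 6 called higher in each mutant and none lower.

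The change itself differed between the mutants for 6 of the 17 genes. NCU06001, NCU08355, NCU09209, NCU09210 and NCU09659 had a more positive change in Δ*rco-3*, against 3.33% of all genes, and NCU05557 a more negative one, against 3.91%. With quantile normalization 3 of the 5 were kept, those of NCU06001 and NCU09659 being 0.94 and 0.84. For *cat-3* the changes differed by 0.38, for *acw-12* by -0.07 and for NCU01298 by -0.15, none of them called. Of 10 heat shock genes 7 were also called with a more positive change in Δ*rco-3*.

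Other lists gave a setting for these counts at 0.05% glucose. Of 6 conidiation genes 3 were called higher in each mutant *vs.* WT (*con-8*, *con-10* and *eas*). Of 10 heat shock genes found by symbol none was called in Δ*rco-3* and 4 were higher in Δ*col-26*. Of 3 carotenoid synthesis genes none was called in Δ*rco-3* and *al-1* was higher by 1.37 in Δ*col-26*, and of 5 nitrate assimilation genes none was called in either. Of 3 glucose transporter genes 2 were lower in each mutant, among them *glt-1*, with mean levels of 4956 FPKM in WT libraries, 2.03 FPKM in Δ*rco-3* ones and 1.02 FPKM in Δ*col-26* ones. *grg-1*, a glucose-repressible gene, was higher by 1.32 and 1.00. Of 7 mating type and pheromone genes 5 were tested and *mfa-1* alone was called, higher in both mutants. *pre-2*, a pheromone receptor gene, was at most 0.08 FPKM in the WT and between 4.70 and 9.94 FPKM in the mutants, and NCU01957, a locus picked after its values were seen, at most 0.84 and between 6.09 and 14.7 FPKM, so that both met every condition for the 17 genes but the one on FPKM.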

How the data were processed

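The deposited values are FPKM per locus and library, 24 files in all, which the authors made by trimming with Trimmomatic 0.36, aligning to predicted transcripts of the OR74A genome (version 12) and counting with RSEM 1.2.8. The aligner is Bowtie2 in the paper and HISAT2 2.1.0 in the submitters' processing notes, and the platform is BGISEQ in the paper and Illumina in the labels. The authors' calls with DESeq were not rerun, since FPKM are not counts. FPKM are relative to each library's mapped fragments, so a change in abundant genes shifts the others. Symbols and positions came from the NC12 RefSeq annotation, which is of the same build and matched 9729 of 9730 loci. It holds no product names, so *acw*, *sod* and *hsp* genes were found by symbol. Sequences were not used.

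Groups came from the sample labels, with 2 samples each that the study calls independent duplicates. Tests used limma 3.58.1 in R 4.3.3 (functions lmFit, contrasts.fit and trended eBayes) on values of log2(FPKM + 1), with 12 groups in 1 fit and 7981 genes of mean FPKM at least 1 in a group. Benjamini-Hochberg adjustment of p ran over these genes. Fold changes on this scale understate those of low genes. Only comparisons outside the selection rule were tested. On simulated data with 200 changed genes the script was tested before use. Figures were drawn with matplotlib 3.10.9 under Python 3.11.15 with pandas 2.3.3 and numpy 2.4.6. The named genes are all that met the selection rule, the deleted genes, the nearest genes on either side of the limits, and called or selected genes of the lists given in the text. Neighbouring loci were added after their values were seen. The genes and lists were chosen with earlier results of these data known. Alternatives were pseudocounts of 0.1 and 5, median-ratio scaling, quantile normalization, other limits and filters, the replicate number as a block, and each library left out in turn.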

Additional observations from a re-analysis of the deposited data

Results flagged for a closer look

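Of the 17 genes, 4 were called between the starved mutants in the limma fit, against 5.31% of all genes tested in either direction. Values are Δ*rco-3* minus Δ*col-26* on the log2(FPKM + 1) scale. Of the genes higher in Δ*rco-3*, only NCU09210 was still called with median-ratio scaling. The difference was -1.67 for NCU05557, 1.25 for NCU06001, 1.68 for NCU09209 and 1.6 for NCU09210, and the libraries of the mutants did not overlap for any of them.

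For 6 genes the change from 0.05% glucose to no carbon source differed between the mutants in a test of that difference. Of all genes tested, 3.33% had a more positive change in Δ*rco-3* and 3.91% a more negative one. With quantile normalization NCU06001 and NCU09659 were no longer called. Δ*rco-3* minus Δ*col-26* was -1.64 for NCU05557, 1.09 for NCU06001, 1.39 for NCU08355, 1.76 for NCU09209, 2.07 for NCU09210 and 1.14 for NCU09659. NCU09210 changed by 1.18 in Δ*rco-3* and by -0.89 in Δ*col-26*, the second of which was not called. What sets the mutants apart on these genes was not tested. With 2 libraries per group, single libraries could not be tested as outliers.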

How the results depend on the processing

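The selection gave 17 genes, and 27 with a limit of 0.8 on the difference, 8 and 27 with a starvation limit of 0 and 1, and 31 with no minimum FPKM, of which 17, 8, 17 and 17 were among the 17. It gave 16 to 20 with 1 replicate left out. With median-ratio scaling it again gave 17, but only 13 were the same genes. The alternatives for called gene differences include a looser limit on the adjusted p and no minimum difference. On the same fit neither of these could change a sign or miss a limit. Of 48 called gene differences, none changed sign under the alternatives. Of their 744 alternative values 28 missed a limit. Of these, 23 were with the 2 other scalings, 3 with a pseudocount of 5 and 2 without 1 library. These last were NCU02875 (Δ*rco-3* against the WT at 0.05% glucose) and NCU06001 in the difference between the mutants' changes, which was 0.99 without Δ*col-26* replicate 1 in the medium without carbon source. With median-ratio scaling 4 genes were called higher at 0.05% glucose in Δ*rco-3* than in the WT, 1 lower there than in Δ*col-26*, 1 higher between the starved mutants and 0 higher on starvation within Δ*rco-3*. With quantile normalization the first count was 7 and 3 were higher in the difference between the changes. With no minimum difference 5 were higher and 5 lower between the mutants at 0.05% glucose (Δ*rco-3* minus Δ*col-26*), 7 and 2 between the starved mutants, 3 and 11 on starvation within Δ*rco-3*, 13 lower within Δ*col-26*, and 9 higher in the difference between the changes. Leaving out 1 library gave 12 to 13 genes called higher than the WT at 0.05% glucose with Δ*rco-3*, and with the other mutant 12, 5 to 6 lower on starvation within Δ*rco-3*, and 4 to 6 higher in the difference between the changes, with the remaining counts as in the report. The replicate numbers are numbers only. Same-numbered libraries deviated from their group means with correlations of -0.43 to 0.25 (median -0.01) over 66 pairs of groups, and a fit with the replicate block gave 12 and 12 genes higher than the WT at 0.05% glucose and changed no call. The depth of the libraries is not known, so transcripts listed at 0 in the WT cannot be given a lower limit of detection.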
